A study of Mus musculus with 8 samples.

Results

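The 9 genes described here encode the thyroid hormone receptors *Thra* and *Thrb*, the activating deiodinases *Dio1* and *Dio2*, the membrane transporters *Slc16a10*, *Slco1c1*, *Slc7a5* and *Slc7a8*, and the cytosolic T3-binding protein *Crym*. They were taken by gene symbol from a table of 26590 symbols, in which they occupy 18 of 51414 transcript rows. For each gene, the row with the highest average of both genotype means was used, and the other rows are given beside it. The samples were whole hearts of 4 *Dio3+/+* and 4 *Dio3-/-* fetuses on the C57BL/6J background, each heart from an individual fetus. Both groups were otherwise untreated, and the mutation removed the hormone-inactivating deiodinase from the whole fetus rather than from the heart alone. Sample titles place all 8 hearts at E13.5, whereas the age field gives E18.5 for 2 of the 4 *Dio3-/-* hearts, and the study's methods name a stage between these for the hearts used for RNA. Hence an effect of genotype and one of a possible age difference cannot be told apart. The series is described as male. The comparison asks which parts of the heart's own machinery for taking up, activating and sensing thyroid hormone (TH) differ when TH clearance is lost.

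TH enters cells through membrane transporters. Inside the cell, an outer-ring deiodinase converts the prohormone thyroxine (T4) to 3,5,3′-triiodothyronine (T3), and DIO3 inactivates both hormones. T3 binds the nuclear receptors encoded by *Thra* and *Thrb*, which pair with retinoid X receptors on DNA. In the heart, T3 is known for its control of contraction rate, of calcium cycling and of the myosin heavy chain genes, and the α receptor is the predominant cardiac form.

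Of the 9 genes, 5 (*Thra*, *Slc7a5*, *Slc16a10*, *Slc7a8* and *Dio2*) exceeded 1 RPKM, a read count scaled to transcript length and library size, in the mean of either genotype and were tested by limma on the log2(RPKM + 0.5) scale. None of the 5 passed at an adjusted *P* value of 0.05. Over all 14657 genes tested, 2.59% had such a value in at least 1 row. At an unadjusted *P* value under 0.05 in any row, limma gave 2 of the 5 (*Slc7a8* and *Slc16a10*), against 21.8% of all genes. In the row used, limma gave 1 (*Slc7a8*), while 18.8% of all rows tested were under that limit. Welch's test gave *Slc7a8* alone at that limit in any row, against 18.8% of all genes, and no member after adjustment. The 1 member whose hearts were fully separated by genotype lay below the 1 RPKM limit. This was *Thrb*, which was higher in *Dio3-/-* hearts by a ratio of the means of 1.56.

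The table used here gives the mean and the coefficient of variation (CV, the SD divided by the mean) of each genotype and no value for a single heart. These summaries still limit where the hearts lie. With 4 values, none can be more than 1.5 SDs from the mean, and the limits below also allow for the rounding of the mean and the CV. Where the limits of both genotypes do not meet, all 4 hearts of 1 genotype were above all 4 of the other. Of 24817 genes above 0, this held with *Dio3-/-* higher for 2.15% and with *Dio3-/-* lower for 0.351%.

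Markers were read over the whole series as counts and summed levels. All 6 cardiomyocyte markers were present, with sums of 8479 (*Dio3+/+*) and 9708 (*Dio3-/-*) RPKM, and 1 of them passed the test as higher. The 5 erythroid markers summed to 37086 and 12663 RPKM, with 1 passing as lower, and CVs reached 0.40 in *Dio3+/+* and 0.61 in *Dio3-/-* hearts. The 7 hepatocyte markers summed to 14.9 and 101.9 RPKM, with CVs up to 1.41 and 1.26, and none passed. None of 4 endothelial, 4 fibroblast and 3 macrophage markers passed, and 1 neural marker of 3 passed as higher. None of the 7 markers of the thyroid gland itself was above 0.41 RPKM in either genotype. The part of these differences in the results below was not tested. In whole hearts, fewer cells of a type and less RNA per cell cannot be told apart.

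*Dio3*, the targeted gene, averaged 0.35 RPKM (CV 1.23) in *Dio3+/+* and 0.13 RPKM (CV 0.76) in *Dio3-/-* hearts. It could not check the genotype labels. At this level, limma gave its log2 difference an adjusted *P* value of 0.589 when all rows above 0 were tested. The study also names a separate line that lacks the full *Dio3* gene and does not say whether *Dio3-/-* hearts keep transcript. Loss of the transcript therefore cannot be assumed. For the *Dio3+/+* mean and CV of *Dio3* to hold, at least 1 heart must have had 0.863 RPKM or more. The limit for any *Dio3-/-* heart was 0.290 RPKM.

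**Figure D1:**
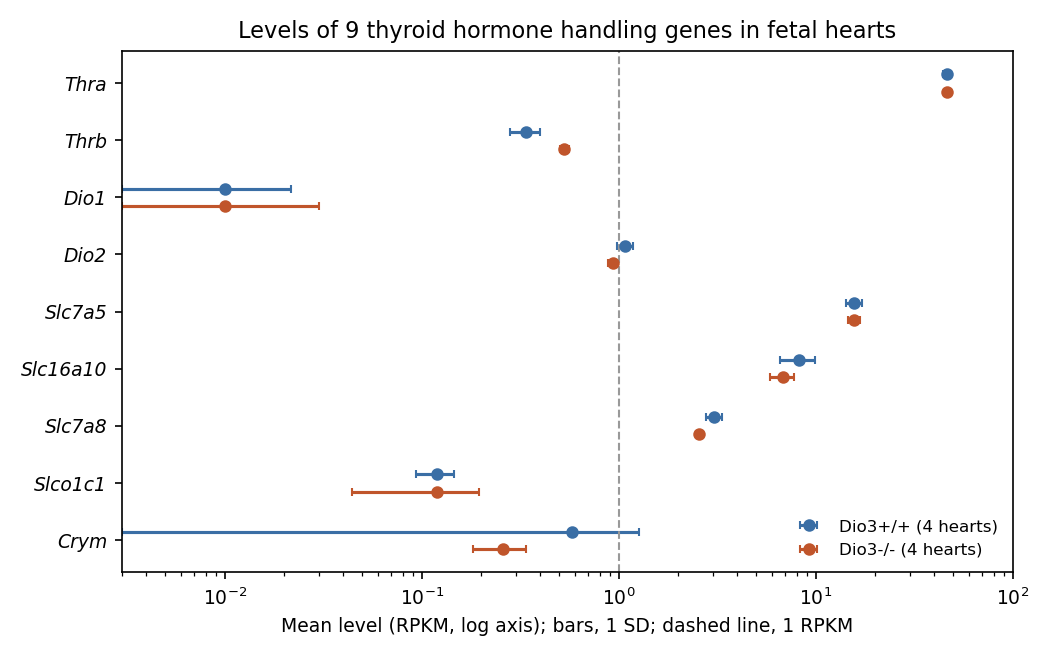
Mean level of each gene (RPKM, log axis) in *Dio3+/+* and *Dio3-/-* hearts, 4 hearts per genotype, in the row used for the gene; bars are 1 SD, derived from the deposited CV, and end at the left edge where the mean minus the SD is near or below 0. The points run from 0.01 RPKM for *Dio1* to about 46 RPKM for *Thra*, and the dashed line marks 1 RPKM.

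The receptors differed widely in level. *Thra*, which encodes the α receptor, averaged 46.32 RPKM in *Dio3+/+* hearts (CV 0.05) and 46.45 RPKM in *Dio3-/-* hearts (CV 0.04), higher than 94.2% of all symbols. Any *Dio3+/+* heart lay between 42.5 and 50.1 RPKM and any *Dio3-/-* heart between 43.3 and 49.6 RPKM, so the ranges of the genotypes nearly coincided. The log2 difference was 0.0040, with a 95% confidence interval from −0.11 to 0.12 (adjusted *P* = 0.979 by limma). The spread of *Thra* in this row was close to the median for its level. Rows between 20 and 100 RPKM had a median CV of 0.07 in *Dio3+/+* and 0.05 in *Dio3-/-* hearts.

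*Thra* has 4 rows, which share exons and therefore reads. The row uc007lhg.1, used above, was the highest. The row uc007lhf.1 had 45.59 and 44.88 RPKM in *Dio3+/+* and *Dio3-/-* hearts. The row uc007lhe.1 had 39.69 and 39.45 RPKM. The lowest, uc007lhd.1, had 23.02 RPKM (CV 0.09) and 23.05 RPKM (CV 0.01), which is 0.497 of the highest row in *Dio3+/+* and 0.496 in *Dio3-/-* hearts. The ratio between the rows was thus nearly equal in both genotypes. The adjusted *P* values of the 4 rows ran from 0.859 to 0.992 by limma, and the log2 differences from −0.022 to 0.0040.

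*Thra* yields a hormone-binding α1 receptor and, by a different 3′ end, an α2 form that does not bind T3, and the α2 end lies opposite the end of *Nr1d1*, which encodes the circadian repressor REV-ERBα. In GENCODE release M21, 2 of the 4 protein-coding *Thra* transcripts have exonic bases opposite *Nr1d1* exons, 130 bases in one and 263 in the other. Strand was not stated for these libraries, so reads of the shared stretch cannot be assigned to one gene. *Nr1d1* had 6.12 RPKM (CV 0.10) in *Dio3+/+* and 7.26 RPKM (CV 0.11) in *Dio3-/-* hearts, a log2 difference of 0.23 (adjusted *P* = 0.212 by limma). *Thra* was thus 7.57 times as high as *Nr1d1* in *Dio3+/+* and 6.40 times in *Dio3-/-* hearts. Which of the 4 rows encodes α1 and which α2 is not given in the sources used here, so no ratio of α1 to α2 is reported.

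*Thrb*, which encodes the β receptors, was far lower. It averaged 0.34 RPKM in *Dio3+/+* hearts (CV 0.17) and 0.53 RPKM in *Dio3-/-* hearts (CV 0.05). Every *Dio3+/+* heart was at or below 0.436 RPKM and every *Dio3-/-* heart at or above 0.481 RPKM, so the genotypes did not overlap. The same held for the other rows, which share its exons. In uc007shl.2, with 0.35 and 0.52 RPKM, the limits were 0.448 and 0.472 RPKM. In uc007sho.2, with 0.32 and 0.49 RPKM, they were 0.401 and 0.429 RPKM. Of 4446 genes whose larger mean was from 0.1 to 1 RPKM, 0.652% were separated with *Dio3-/-* higher.

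Neither mean of *Thrb* was above 1 RPKM, so it was tested only in the fit of all rows above 0, in which 0.891% of genes had an adjusted *P* value under 0.05. Its log2 difference was 0.29 (95% confidence interval, 0.15 to 0.44), with an unadjusted *P* value of 0.00151 and an adjusted *P* value of 0.0852 by limma. The adjusted *P* values of the other rows were 0.105 and 0.0917. None of the 9 genes passed in that fit, and 3 of them (*Thrb*, *Slc7a8* and *Slc16a10*) had an unadjusted *P* value under 0.05 in at least 1 row, against 15.7% of all genes. The offset of 0.5 RPKM exceeds the *Dio3+/+* mean of *Thrb* and shrinks its difference, which was 0.64 as the log2 ratio of the means. With an offset of 0.1 RPKM, chosen after the data were seen, it was 0.52 (adjusted *P* = 0.129). By length-scaled level, *Thra* was 136 times as high as *Thrb* in *Dio3+/+* and 87.6 times in *Dio3-/-* hearts. *Thrb* made up 0.729% and 1.13% of the sum of both receptors.

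*Thrb* is transcribed from separate promoters for the β1 and β2 forms, and RefSeq (GRCm38.p6) lists a pair of starts. The 250 bases before each start are printed because *Thrb* is the member whose hearts separated by genotype. Capitals mark AGGTCA, the half-site of the thyroid hormone response element, searched on both strands.
Thrb, first start, chr14:17660710-17660959, plus strand: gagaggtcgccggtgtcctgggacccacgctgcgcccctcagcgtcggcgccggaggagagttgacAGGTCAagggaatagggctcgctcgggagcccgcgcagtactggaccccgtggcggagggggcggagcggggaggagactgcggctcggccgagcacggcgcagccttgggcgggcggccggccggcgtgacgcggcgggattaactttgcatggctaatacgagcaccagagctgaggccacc
Thrb, second start, chr14:17981394-17981643, plus strand: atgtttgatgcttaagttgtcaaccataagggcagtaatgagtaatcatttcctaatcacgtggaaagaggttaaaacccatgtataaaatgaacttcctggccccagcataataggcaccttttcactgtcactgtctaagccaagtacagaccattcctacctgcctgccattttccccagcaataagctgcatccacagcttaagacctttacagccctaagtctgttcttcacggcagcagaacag
The window of the first start holds 1 half-site and that of the second holds none. Of 32851 RefSeq windows of the same length, 14.0% hold at least 1, and 0.0152% hold the half-site as a direct repeat with a spacer of 4 bases, which neither *Thrb* window does. RefSeq windows were found for 6 of the 9 genes, 7 windows in all, and the first of *Thrb* was the only one with the half-site. That is 14.3% of the 7, near the 14.0% of all windows. The rows of *Thrb* in the table were not matched to these starts. A match is a description of the letters, not a bound site.

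**Figure D2:**
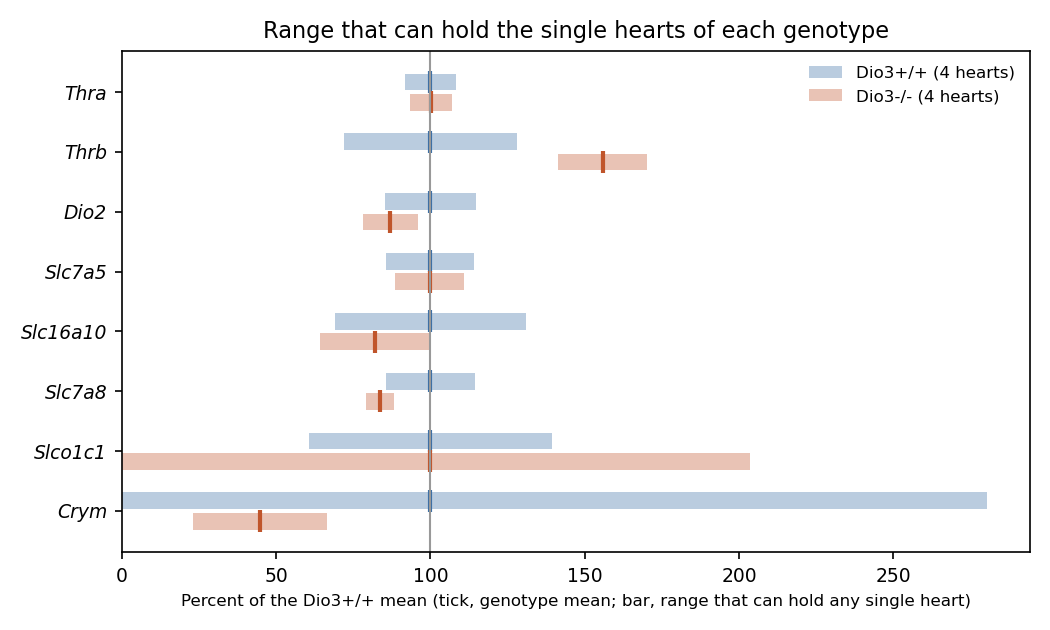
Limits on the single hearts of each genotype, as percent of the *Dio3+/+* mean of the gene; ticks are genotype means and bars span the values that any 1 of the 4 hearts can have. The bars of *Thrb* do not meet, those of *Slc7a8* barely meet (2.61 and 2.69 RPKM), and those of the other genes shown overlap. *Dio1*, at 0.01 RPKM, is left out.

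Of the deiodinases, *Dio1* was nearly absent and *Dio2* was low. DIO1 activates and clears TH mainly in liver and kidney, and its gene is itself a T3 target in those tissues. The *Dio1* mean was 0.01 RPKM for either genotype, and the CVs were 1.16 (*Dio3+/+*) and 2 (*Dio3-/-*). A CV of 2 is the largest that 4 values can give and means that, to the rounding of the CV, 1 heart held all of the signal. No heart could exceed 0.0412 RPKM in *Dio3+/+* or 0.0601 RPKM in *Dio3-/-*, and a difference was not detectable at this level.

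*Dio2* encodes the deiodinase that raises T3 within the cell. It had 1.08 RPKM (CV 0.09) in *Dio3+/+* and 0.94 RPKM (CV 0.06) in *Dio3-/-* hearts. The *Dio3+/+* hearts lay between 0.920 and 1.24 RPKM and the *Dio3-/-* hearts between 0.843 and 1.04 RPKM, ranges that can overlap. The log2 difference was −0.13 (95% confidence interval, −0.35 to 0.080), with an adjusted *P* value of 0.5002 by limma. By these levels, *Dio2* was the highest of the 3 deiodinase genes in both genotypes, above *Dio3* and *Dio1*. Its limits lay clear of those of *Dio1*, but those of *Dio2* and *Dio3* meet in *Dio3+/+* hearts, where a *Dio3* heart can reach 1.01 RPKM.

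Among the transporters, *Slc7a5* was the highest. It encodes LAT1, a large neutral amino acid transporter that also carries TH. Its means were 15.70 RPKM (CV 0.09) in *Dio3+/+* and 15.66 RPKM (CV 0.07) in *Dio3-/-* hearts, with ranges of 13.46 to 17.94 and 13.89 to 17.43 RPKM. The log2 difference was −0.0036 (95% confidence interval, −0.17 to 0.16; adjusted *P* = 0.986 by limma). The genotypes overlapped almost entirely.

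*Slc16a10* encodes MCT10, a transporter of aromatic amino acids and T3. It had 8.27 RPKM (CV 0.20) in *Dio3+/+* and 6.79 RPKM (CV 0.14) in *Dio3-/-* hearts, with limits of 5.72 to 10.8 and 5.31 to 8.27 RPKM. Its log2 difference was −0.27 (95% confidence interval, −0.58 to 0.044; adjusted *P* = 0.342 by limma). The other row, uc007ewn.2, had 4.39 and 3.32 RPKM and a log2 difference of −0.36, with an unadjusted *P* value of 0.0271 and an adjusted *P* value of 0.200. The hearts of both genotypes can overlap in both rows.

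*Slc7a8* encodes LAT2, the second light chain that carries TH. It had 3.05 RPKM (CV 0.09) in *Dio3+/+* and 2.55 RPKM (CV 0.03) in *Dio3-/-* hearts. The *Dio3+/+* hearts lay between 2.61 and 3.49 RPKM and the *Dio3-/-* hearts between 2.41 and 2.69 RPKM, so only a narrow band was open to both. The log2 difference was −0.22 (95% confidence interval, −0.39 to −0.051), with an unadjusted *P* value of 0.0161 and an adjusted *P* value of 0.153 by limma. In the other row, uc007txb.1, the means were 1.35 and 1.10 RPKM and the adjusted *P* value was 0.291. *Slc7a5* was 5.15 times as high as *Slc7a8* in *Dio3+/+* and 6.14 times in *Dio3-/-* hearts.

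*Slco1c1* encodes OATP1C1, a T4 transporter known from brain vessels and the choroid plexus. Its mean was 0.12 RPKM in both genotypes and in both of its rows. The CV of the row used was 0.22 in *Dio3+/+* and 0.63 in *Dio3-/-* hearts. The hearts lay between 0.0728 and 0.167 RPKM in *Dio3+/+* and at most 0.244 RPKM in *Dio3-/-*, so no difference was detectable.

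*Crym* encodes μ-crystallin, which binds T3 in the cytosol. It averaged 0.58 RPKM (CV 1.18) in *Dio3+/+* hearts and 0.26 RPKM (CV 0.30) in *Dio3-/-* hearts. At least 1 *Dio3+/+* heart had 1.30 RPKM or more, while no *Dio3-/-* heart could exceed 0.386 RPKM. The other row, uc009jml.1, had 0.14 RPKM (CV 1.35) and 0.05 RPKM (CV 0.45). In the fit of all rows above 0, the log2 difference of *Crym* was −0.51 (95% confidence interval, −1.38 to 0.36; adjusted *P* = 0.603 by limma), which is within the spread between hearts.

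Other genes shared the wide spread of *Crym* among *Dio3+/+* hearts. Genes with a larger mean above 0.1 RPKM numbered 19103 and were not matched to *Crym* in level. A CV above 1 in *Dio3+/+* hearts was found for 544 of them (2.85%). *Dio3* was one of them (CV 1.23). *Rxrg*, which encodes the retinoid X receptor γ, was another, with 1.38 RPKM (CV 1.02) in *Dio3+/+* and 0.50 RPKM (CV 0.18) in *Dio3-/-* hearts. At least 1 *Dio3+/+* heart had 2.58 RPKM of *Rxrg* or more, against a *Dio3-/-* limit of 0.645 RPKM. The hepatocyte markers *Alb*, *Afp*, *Apoa1* and *Fgb* also had *Dio3+/+* CVs above 1 (1.12 to 1.41), but their means were higher in *Dio3-/-* hearts. Whether the same heart was high for all of these genes cannot be read from the means.

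**Figure D3:**
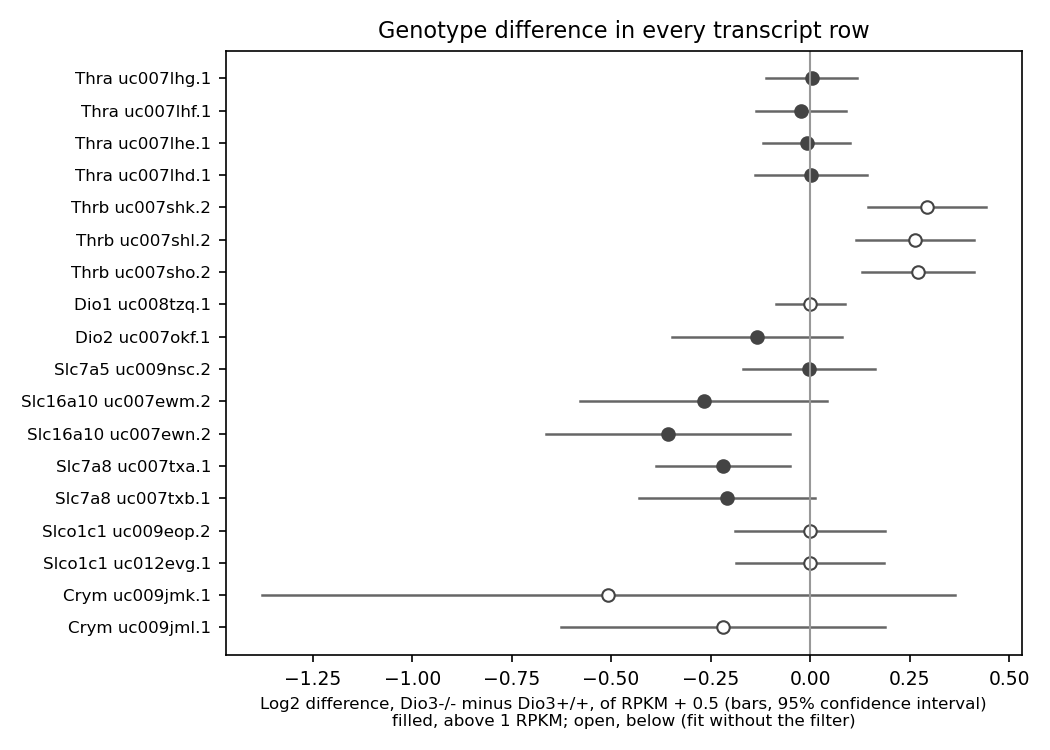
Log2 difference of each of the 18 rows, *Dio3-/-* minus *Dio3+/+*, on the log2(RPKM + 0.5) scale, with 95% confidence intervals from limma; filled points are rows above 1 RPKM and open points are rows below it, taken from the fit of all rows above 0. The 4 *Thra* rows lie at 0, the 3 *Thrb* rows are above 0, and those of *Dio2*, *Slc16a10*, *Slc7a8* and *Crym* are below it.

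Of the 5 members tested, 4 had a negative log2 difference, and the median of all 5 was −0.13, the value of *Dio2*. *Slc7a5*, at −0.0036, was as near 0 as *Thra*, at 0.0040. *Dio2* was above 1 RPKM only in its *Dio3+/+* mean (1.08 against 0.94 RPKM), so neither the count of 4 nor the median is read as a direction. Over all genes tested, 36.1% were negative and the median was 0.039. In order of level per transcript length, *Dio3+/+* hearts had *Thra*, *Slc7a5*, *Slc16a10*, *Slc7a8*, *Dio2*, *Crym*, *Thrb*, *Slco1c1* and *Dio1*. Neighbours from *Thra* down to *Dio2* were apart by the limits of their hearts, as were *Thrb*, *Slco1c1* and *Dio1*, whereas *Crym*, whose lower limit was 0, could overlap with every gene from *Dio2* down. In *Dio3-/-* hearts, *Thrb* stood above *Crym* and the 2 were apart (0.481 against 0.386 RPKM), and neighbours among *Crym*, *Slco1c1* and *Dio1* could overlap.

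The rest of the pathway was read from lists chosen with these results known. Of 15 other TH transporters and partner chains, 5 were above 1 RPKM and none passed the test. The highest was *Slc3a2*, the heavy chain that SLC7A5 and SLC7A8 need at the cell surface, with 33.95 RPKM (CV 0.11) in *Dio3+/+* and 30.10 RPKM (CV 0.07) in *Dio3-/-* hearts (adjusted *P* = 0.302 by limma). *Slc3a2* was 1.81 times the sum of both light chains in *Dio3+/+* and 1.65 times in *Dio3-/-* hearts. *Slco3a1*, *Slc43a1* and *Slc43a2* were also above the limit. The liver-type transporters *Slco1a1*, *Slco1a4*, *Slco1b2* and *Slc17a4* were at or below 0.02 RPKM, whereas *Slc10a1*, the bile acid transporter of hepatocytes, had 0.35 and 0.42 RPKM.

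A list of 11 genes held *Dio3*, given above, and genes that support deiodinases through selenoprotein synthesis or DIO2 turnover. Of the 11, 10 were found and 9 tested, *Dio3* not among them, and none passed. The highest was *Wsb1*, which encodes a ubiquitin ligase adaptor for DIO2, with 39.04 and 36.19 RPKM (adjusted *P* = 0.654 by limma). None of 15 receptor partners passed. The corepressor *Ncor1* had 40.07 and 41.36 RPKM, and *Tbl1x*, a subunit of its complex and the highest of the list, had 44.01 and 47.11 RPKM (adjusted *P* = 0.322 by limma). The median log2 difference was 0.034 for the receptor partners and 0.068 for the deiodinase support list, beside 0.039 over all genes. Of the 3 hormone-conjugating or iodide-recycling genes, *Sult1a1* alone was tested, with 2.18 and 2.09 RPKM. Of 3 serum carriers, *Alb* and *Ttr* were tested and neither passed. *Alb* had 5.16 RPKM (CV 1.29) and 36.06 RPKM (CV 1.18), and both it and *Ttr* are among the hepatocyte markers above.

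Most of the T3-responsive genes tested passed. Of 12 such genes, most of which the study had singled out in these hearts and which are therefore not independent evidence of direction, 9 were tested. Of these 9, 8 were higher in *Dio3-/-* hearts (*Klf9*, *Hr*, *Myh6*, *Atp2a2*, *Dbp*, *Adrb1*, *Slc2a4* and *Gpd2*) and none was lower. Their log2 differences ran from 0.35 for *Gpd2*, the mitochondrial glycerophosphate dehydrogenase, to 1.93 for *Klf9*, a transcription factor. All 8 were also separated by the limits of their hearts, which rest on the same means and CVs as the test and add no support. Over all genes, 2.59% of those tested passed in either direction. Of those above 0, which were not selected by the test, 2.15% were separated with *Dio3-/-* higher. *Adrb1*, the β1-adrenergic receptor gene, rose from 3.11 RPKM (CV 0.18) to 4.88 RPKM (CV 0.09), with a log2 difference of 0.58 (standard error 0.11, adjusted *P* = 0.0376 by limma). *Slc2a4*, the insulin-responsive glucose transporter gene, rose from 8.08 RPKM (CV 0.05) to 11.99 RPKM (CV 0.09), with a log2 difference of 0.54 (adjusted *P* = 0.0066 by limma). *Me1*, the cytosolic malic enzyme gene, had 16.24 and 15.55 RPKM and did not pass. *Hr*, with 0.33 and 1.23 RPKM in the row used, was above the 1 RPKM limit only through its *Dio3-/-* mean. Below the limit and untested were *Hcn2* (0.28 and 0.44 RPKM), *Ucp3* (0.05 and 0.13 RPKM) and *Thrsp*, whose mean was lower in *Dio3-/-* hearts (0.23 and 0.15 RPKM). With Welch's test, 4 of the 8 passed. In the fit of all rows above 0, 7 passed, and the call of *Adrb1* was lost (adjusted *P* = 0.0713 by limma).

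A list of 4 genes near the receptor genes was compared last. *Thra* lies between *Med24* and *Nr1d1*, and *Thrb* between *Rarb* and *Nr1d2*, in the annotation. *Rarb* was not in the list. *Med24* and *Msl1* did not pass, with adjusted *P* values of 0.812 and 0.822 by limma. *Nr1d2*, the paralog of *Nr1d1*, rose from 6.18 RPKM (CV 0.07) to 8.05 RPKM (CV 0.09), a log2 difference of 0.36 (standard error 0.075, adjusted *P* = 0.0478 by limma), and its hearts did not overlap by genotype. Its call was lost under 6 of the 11 alternatives.

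**Figure D4:**
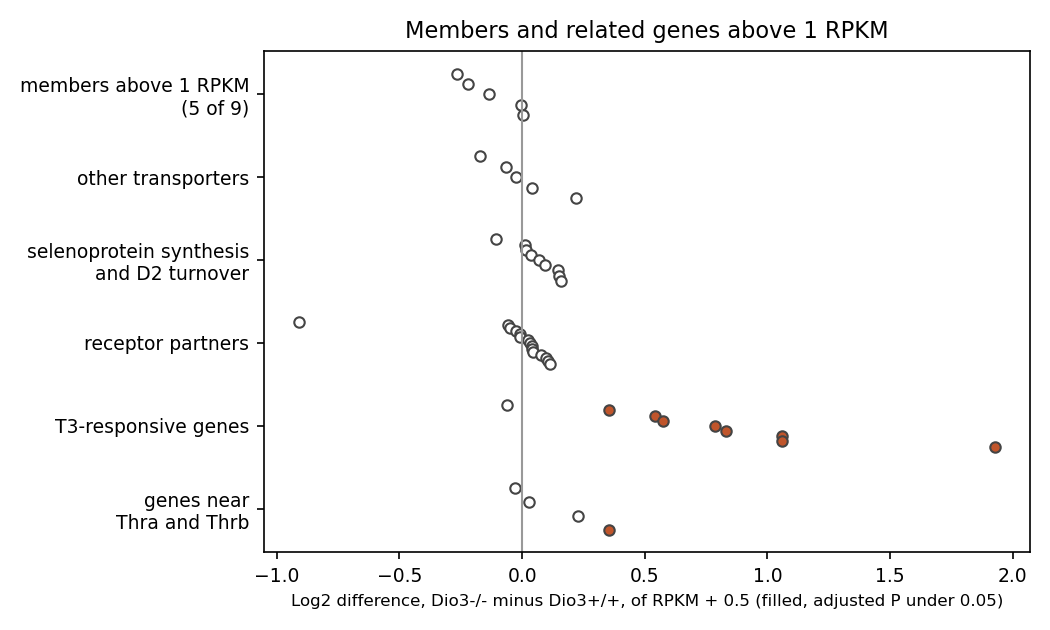
Log2 difference, *Dio3-/-* minus *Dio3+/+*, of the genes above 1 RPKM in each list, in the row used for each gene; filled points have an adjusted *P* value under 0.05 by limma. The 5 members, other transporters, deiodinase support genes and receptor partners are all open, and 8 of 9 T3-responsive genes are filled. *Rxrg*, above 1 RPKM only in its *Dio3+/+* mean, is the receptor partner at −0.91.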

How the data were processed

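RNA of 8 fetal hearts, 4 of each genotype, was sequenced after rRNA removal. Reads were aligned with NovoAlign (version 2.08, per the labels), uniquely mapping reads were kept, and each sample was scaled linearly to the one with the fewest reads. The genome build of the table is not given in the sources used here. The authors deposited genotype means, read here as RPKM because the filter in the methods uses that unit and the table names none, and CVs, a ratio of SD to mean, both with 2 decimals. The deposited table also holds the authors' fold change and q value for each row, which were not used. Depth per heart is unknown from these values.

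Means were transformed to log2(RPKM + 0.5), with an SD derived from the CV, so the log of a mean stands in for a mean of logs. limma shrank the variance, which had 6 residual degrees of freedom, towards a mean-variance trend (version 3.58.1, R 4.3.3). The Benjamini-Hochberg adjustment ran over 32703 rows with a genotype mean above 1 RPKM, and a gene was called when any row had an adjusted value under 0.05. The fit was tested on simulated data. Hearts came from individual fetuses, but with values for genotypes only, no heart could be left out.

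All members, *Dio3* and *Nr1d1* are named. From each list, the genes that passed or the one with the highest mean are named, and other genes named were chosen after their values were seen. The members and lists were chosen with earlier results of these data known. *March6*, *Adgre1* and *Map2* from the lists were not matched by symbol. The limits on single hearts, added after the data were seen, assume that the CV uses the sample SD of 4 hearts; the highest CV in the table is 2, as that predicts. Alternatives were offsets of 0.1 and 1, other filters, no trend, 1 row per gene, Welch's test, centring, a CV raised by 0.005 and omission of rows with a CV above 0.5. Figures were drawn with matplotlib 3.10.9 in Python 3.11.15. A gene of the transporter list is not reported here by name.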

Additional observations from a re-analysis of the deposited data

How the results depend on the processing

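No member had an adjusted *P* value under 0.05 in any of the 12 fits in which it could be tested. The lowest adjusted *P* value of *Slc7a8* was 0.118 and the highest 0.242, and those of *Thrb* were 0.0852 and 0.129. Every fit used the same genotype means, so only centring could change the sign of a difference. Equal signs across fits therefore add no support for a direction. The log2 differences of *Dio2*, *Slc16a10*, *Slc7a5* and *Slc7a8* were negative in every fit that tested them, those of *Slc7a5* from −0.041 to −0.0035. That of *Thra* was −0.034 after centring, which subtracts the median log2 ratio of all rows (0.038), and −0.022 and −0.0086 in the rows uc007lhf.1 and uc007lhe.1, so no direction is given for *Thra*. The 379 genes called over all rows were 221 without the filter, 246 without it and with an offset of 0.1, 206 with each CV raised by its rounding error, 197 after centring (71.1% higher in *Dio3-/-* hearts, against 83.6%) and 37 with Welch's test (100% higher). The count rose to 429 with the filter at 5 RPKM and to 555 without rows of a CV above 0.5. Of the T3-responsive genes, 4 passed with Welch's test, 6 with the filter at 5 RPKM, and 7 without the filter (either offset) and after centring. Of the genes near the receptor genes, 0 passed without the filter (either offset), without the trend, with Welch's test, after centring and with raised CVs, where *Nr1d2* had passed. The causes were not tested. No paired analysis was possible because the table gives genotype means without replicate numbers, and for the same reason no heart was left out. The level of *Dio1* equals the rounding step of 0.01 RPKM, which limits what can be said of it.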
